A study of Mus musculus with 6 samples.

Results

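Transforming growth factor-β (TGF-β) signalling was read through 10 genes in long-term (LT) CML stem cells: the ligand *Tgfb1*, the receptors *Tgfbr1*, *Tgfbr2* and *Tgfbr3*, the signal transducers *Smad2*, *Smad3* and *Smad4*, the inhibitory *Smad7*, and the corepressors *Ski* and *Skil*. They were taken by gene name from a table of 36976 genes, each name matched a single entry, and all 10 passed the filter on low values that left 24689 genes. The RNA-Seq data came from 6 bone marrow libraries, *Gdpd3*+/+ replicates 1 to 3 and *Gdpd3*-/- replicates 5 to 7, and their values are given in that order throughout. The sorted cells were negative for lineage markers, CD48 and CD135 and positive for Sca-1, cKit and CD150. *Gdpd3* encodes a lysophospholipase D. The mice had a C57BL/6 background, with the *SCL-tTA* and *TRE-BCR-ABL1* lines listed in the paper as C57BL/6 F5. All carried both transgenes, were kept on doxycycline until 5 weeks after birth, and were sampled 5 weeks after its withdrawal. BCR-ABL1 is thereby expressed in cells in which the SCL regulatory element drives tTA. The *Gdpd3*-/- strain carries a deletion of 5 bp near the start of the coding sequence, made by genome editing of zygotes. Donor mice were 22 male and 12 female for *Gdpd3*+/+, and 5 male and 5 female for *Gdpd3*-/-. How these mice were divided among the libraries is not given in the sources used here.

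TGF-β binds the type II receptor, which recruits and phosphorylates the type I receptor kinase, and the type III receptor betaglycan presents ligand to this pair. The active type I receptor phosphorylates Smad2 and Smad3, which join Smad4 and enter the nucleus, where Ski and SnoN (the product of *Skil*) hold Smad target genes in check. Smad7 blocks the receptor and is itself a product of the pathway, as is SnoN. TGF-β is known as a signal that keeps haematopoietic stem cells quiescent, and earlier work of the group behind these data linked TGF-β and Foxo signalling to the maintenance of CML stem cells.

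Values are FPKM, fragments scaled to gene length and library size, so that levels of different genes can be compared. Depth was inferred as covered bases, the scale at which FPKM times gene length becomes a whole number, and was 4.98 to 6.28 Gb in *Gdpd3*+/+ and 2.13 to 3.64 Gb in *Gdpd3*-/- libraries. At 150 bases a read, the 10 genes held between 180 and 4261 read equivalents in any library. *Gdpd3* itself had 2.95 to 7.30 FPKM in *Gdpd3*+/+ and 0.0129 to 0.681 in *Gdpd3*-/- libraries. The 8 stem cell markers searched for, among them *Kit*, *Ly6a*, *Slamf1* and *Procr*, summed to 654 to 729 FPKM in *Gdpd3*+/+ and 687 to 917 in *Gdpd3*-/- libraries. *Flt3*, which encodes the CD135 that the sort selected against, had 9.80 to 11.0 and 36.8 to 46.5 FPKM. The 7 markers that the sort left out, *Flt3* among them, summed to 110 to 142 and 146 to 183 FPKM. Of these, *Cd48* was also higher without overlap (39.8 to 44.8 against 51.6 to 92.2 FPKM), and *Itgam*, a myeloid marker, was lower without overlap (19.3 to 22.3 against 1.69 to 13.4 FPKM). All 10 skeletal muscle markers lay higher in every *Gdpd3*-/- library, and their sum was 811 to 1210 FPKM in *Gdpd3*+/+ against 10505, 15130 and 1991 in *Gdpd3*-/-. The 8 B and plasma cell markers summed to 117570 to 135950 FPKM in *Gdpd3*+/+ and 40096 to 68743 in *Gdpd3*-/- libraries, with *Ms4a1* listed at 0 in *Gdpd3*-/- replicate 6. *Mzb1* of that list was called lower, and *Cd79b* of the same list was higher in every *Gdpd3*-/- library, at 39.5 to 39.9 against 50.2 to 58.7 FPKM (limma adjusted p = 0.0863). Of the muscle list, 0 genes were called by limma, although all 10 had an unadjusted p under 0.05, beside 22.2% of all genes tested. The part of these other transcripts in the values of the 10 genes was not tested. In bulk RNA, fewer cells of a type and less RNA per cell cannot be told apart.

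In *Gdpd3*+/+ LT-CML stem cells all 10 genes were detected in every library, at mean levels from 2.01 to 28.6 FPKM. *Smad4* had the highest mean level, 28.6 FPKM, followed by *Smad2* (22.5) and *Tgfb1* (22.4), whose ranges over libraries overlapped. Among the receptors of these 10 genes, *Tgfbr3* was the most abundant at 12.0 FPKM. It lay above *Tgfbr2* (9.04) and *Tgfbr1* (6.71) without overlap between neighbours other than *Smad3* (7.03) and *Tgfbr1*. *Ski* (5.71), *Skil* (3.28) and *Smad7* (2.01) closed the order, each apart from the next. In *Gdpd3*-/- cells the order differed: *Tgfbr3* stood below *Tgfbr2*, *Smad3* and *Ski*, and *Smad7* (2.61 FPKM) stood above *Skil* (2.16). The ranges of *Tgfbr2*, *Smad3*, *Ski*, *Tgfbr3* and *Tgfbr1* overlapped from each to the next there. Neighbours also changed places between libraries, so the full order of these genes in *Gdpd3*-/- cells is not resolved. Within each *Gdpd3*-/- library, however, *Tgfbr3* (7.37, 5.81 and 8.89 FPKM) was below *Tgfbr2* (7.70, 8.56 and 12.1) and *Smad3* (8.41, 8.26 and 10.6). The order of *Smad7* (2.38 to 2.97 FPKM) and *Skil* (1.55 to 2.47) is not resolved there either, as their ranges overlapped.

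**Figure D1:**
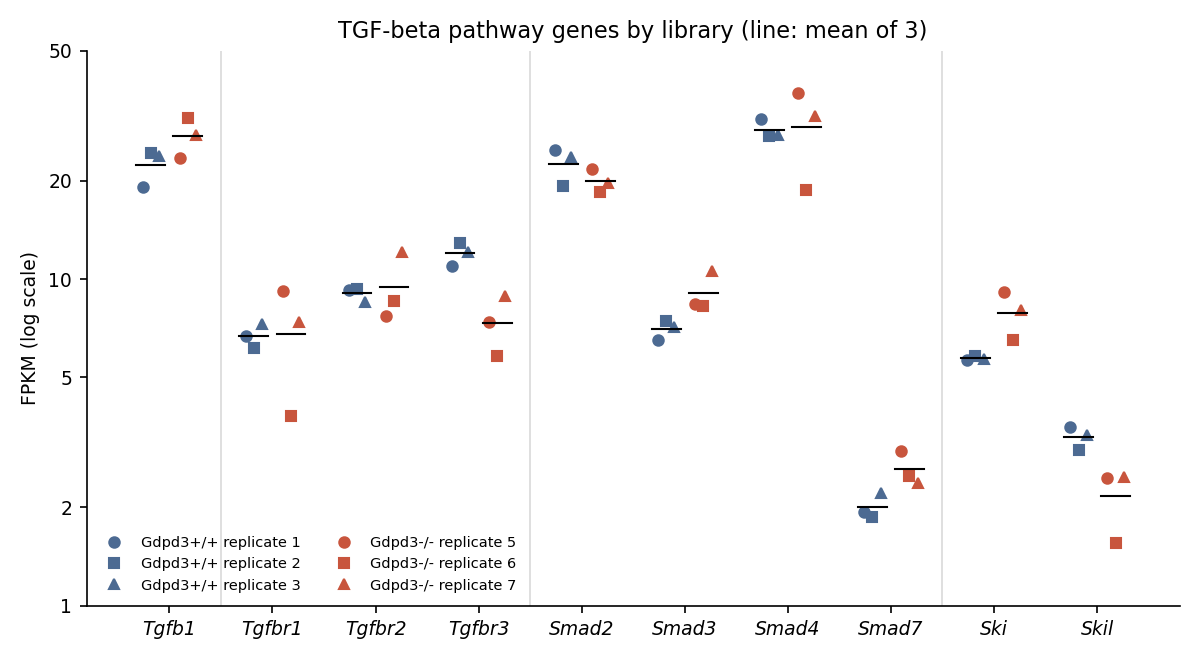
FPKM (log scale) of the 10 genes in each library, with blue points for *Gdpd3*+/+ replicates 1 to 3, red points for *Gdpd3*-/- replicates 5 to 7 and a line at each mean of 3 libraries. The genotypes are apart for *Tgfbr3*, *Smad3*, *Smad7*, *Ski* and *Skil*, and *Gdpd3*-/- replicate 6 lies low for *Tgfbr1* and *Smad4*.

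None of the 10 genes passed the test across all genes. Limma with an intensity trend, fitted to log2(FPKM + 0.1) of the 24689 genes, gave 0 of 10 genes with an adjusted p under 0.05, beside 1.71% of all genes tested. At an unadjusted p under 0.05 there were 2 of 10, *Tgfbr3* and *Ski*, beside 22.2% of all genes. Every *Gdpd3*-/- library lay outside the range of the *Gdpd3*+/+ libraries in 1 direction for 5 of 10 genes, beside 31.8% of all genes tested and 38.4% of genes whose mean FPKM reached 1 (28.2% higher and 10.2% lower). *Smad3*, *Smad7* and *Ski* were the 3 genes above, beside 23.5% of all genes, and *Tgfbr3* and *Skil* the 2 below, beside 8.27%. The median log2 fold change (*Gdpd3*-/- minus *Gdpd3*+/+) of the 10 genes was 0.0064, against 0.24 for all genes tested. TMM scaling, which centres the libraries on their shared genes, moved these medians to −0.21 and 0.03, and quantile normalization moved them to −0.10 and −0.0063. After TMM scaling the genes without overlap were *Tgfbr3*, *Skil* and *Smad2*, all lower, beside 29.9% of all genes (14.0% higher and 15.9% lower), and *Smad3*, *Smad7* and *Ski* overlapped between the genotypes. After quantile normalization 4 of 10 had no overlap, *Smad3* and *Ski* higher and *Tgfbr3* and *Skil* lower. The share of all genes there was 29.1% (13.6% higher and 15.5% lower). With 3 libraries against 3, the two-sided exact permutation test of a single gene cannot go below p = 0.1.

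**Figure D2:**
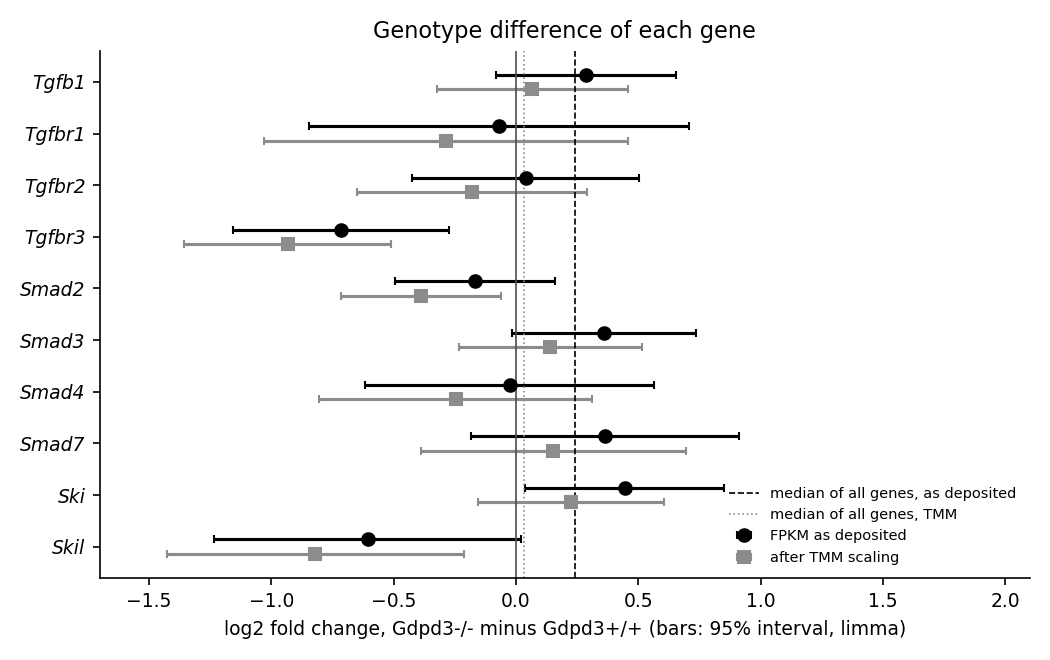
Log2 fold change of each gene (*Gdpd3*-/- minus *Gdpd3*+/+) from limma with its 95% interval, for FPKM as deposited (black) and after TMM scaling (grey); vertical lines mark 0 and the median of all genes under each scaling (0.24 and 0.03). The interval of *Tgfbr3* lies below 0 under both, that of *Ski* lies above 0 only before TMM scaling, and those of *Smad2* and *Skil* lie below 0 only after it.

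*Tgfb1* (ENSMUSG00000002603.9, chr7:26472021-26490096 in mm9, forward strand) encodes the TGF-β1 ligand. It had 19.1, 24.3 and 23.8 FPKM in the *Gdpd3*+/+ libraries and 23.4, 31.0 and 27.6 FPKM in the *Gdpd3*-/- libraries. The means were 22.4 ± 2.88 and 27.4 ± 3.82 (SD, n = 3), and the groups overlapped through *Gdpd3*-/- replicate 5 (exact permutation p = 0.3). On the log2 scale the fitted difference was 0.29 (95% interval −0.08 to 0.65, limma adjusted p = 0.317), close to the median of all genes, and it was 0.07 after TMM scaling. Platelets are a known store of TGF-β1, and the 7 megakaryocyte and platelet markers summed to 217 to 316 FPKM in *Gdpd3*+/+ and to 200, 503 and 207 in the *Gdpd3*-/- libraries, highest in the library with the most *Tgfb1*. That sum was mostly *Pf4* (310 FPKM) and *Ppbp* (95.7), while *Itga2b* (36.0) and *Gp1bb* (10.6) were below *Gdpd3*+/+ replicates 2 and 3 there. *Gp6* of that list was at 0 in every library, 0 of its 6 tested genes were called by limma (1, *Itga2b*, at an unadjusted p under 0.05, with lower fitted level), and its part in the level of *Tgfb1* was not tested.

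*Tgfbr3* (ENSMUSG00000029287.8, chr5:107535589-107718648 in mm9, reverse strand), which encodes betaglycan, had the lowest p of the 10 genes. Levels were 11.0, 12.9 and 12.1 FPKM with *Gdpd3* intact and 7.37, 5.81 and 8.89 FPKM without it. All 3 *Gdpd3*-/- values were the lower ones (exact permutation p = 0.1, two-sided), and the mean went from 12.0 ± 0.937 to 7.36 ± 1.54 (SD, n = 3), a ratio of 0.614. The log2 fold change was −0.72 (standard error 0.19, 95% interval −1.16 to −0.27, adjusted p = 0.0953 from limma over all genes). After TMM scaling and quantile normalization it was −0.93 (adjusted p = 0.0631) and −0.83 (adjusted p = 0.0915) in limma. With any single library left out, the log2 fold change stayed between −0.86 and −0.56, while the limma adjusted p ran from 0.0299 without *Gdpd3*-/- replicate 7, where 14.2% of all genes were called (4.36% lower), to 0.330 without *Gdpd3*+/+ replicate 3.

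The signalling receptors overlapped between the genotypes. *Tgfbr1* (ENSMUSG00000007613.9, chr4:47366094-47427803 in mm9, forward strand), the type I receptor kinase, had 6.69, 6.16 and 7.29 FPKM in the *Gdpd3*+/+ libraries and 9.20, 3.80 and 7.41 FPKM in the *Gdpd3*-/- libraries. Its *Gdpd3*-/- libraries thus lay on either side of the *Gdpd3*+/+ range, with replicate 6 the lowest of all. The fitted log2 fold change of *Tgfbr1* was −0.07, and its 95% interval of −0.85 to 0.71 spans changes from 0.556-fold to 1.63-fold (limma adjusted p = 0.911). Without *Gdpd3*-/- replicate 6 it was 0.30 (limma adjusted p = 0.292). *Tgfbr2* (ENSMUSG00000032440.5, chr9:115993415-116084383 in mm9, reverse strand), the type II receptor, ranged from 8.51 to 9.33 FPKM in *Gdpd3*+/+ and from 7.70 to 12.1 FPKM in *Gdpd3*-/- libraries. Its log2 fold change was 0.04 (95% interval −0.43 to 0.50, limma adjusted p = 0.916), and its sign turned under both scalings, to −0.18 and −0.06.

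Among the receptor-activated Smads, *Smad3* and *Smad2* had fitted differences of opposite sign. *Smad3* (ENSMUSG00000032402.6, chr9:63494574-63605801 in mm9, reverse strand) had 6.52, 7.42 and 7.15 FPKM in the *Gdpd3*+/+ libraries and 8.41, 8.26 and 10.6 FPKM in the *Gdpd3*-/- libraries. The groups did not overlap (exact permutation p = 0.1), and the ratio of means was 1.29. *Smad3* had a log2 fold change of 0.36 (95% interval −0.02 to 0.73, limma adjusted p = 0.239), and after TMM scaling the value was 0.14 and the libraries overlapped. After quantile normalization the value was 0.25 (limma adjusted p = 0.396), without overlap. *Smad2* (ENSMUSG00000024563.9, chr18:76401234-76465385 in mm9, forward strand) ranged from 19.2 to 24.8 FPKM in *Gdpd3*+/+ and from 18.5 to 21.8 FPKM in *Gdpd3*-/- libraries. For *Smad2* the log2 fold change was −0.17 (95% interval −0.49 to 0.16, limma adjusted p = 0.50) and −0.39 after TMM scaling (adjusted p = 0.194).

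*Smad4* (ENSMUSG00000024515.7, chr18:73798663-73863434 in mm9, reverse strand), the common partner of the other Smads, had 30.8, 27.4 and 27.5 FPKM in the *Gdpd3*+/+ libraries and 37.0, 18.8 and 31.6 FPKM in the *Gdpd3*-/- libraries. As for *Tgfbr1*, replicate 6 was the lowest of all 6 libraries and replicate 5 the highest. *Smad4* had a fitted log2 fold change of −0.03 (95% interval −0.62 to 0.57, limma adjusted p = 0.957), which became 0.26 without *Gdpd3*-/- replicate 6 (adjusted p = 0.220). That library also held the highest sum of muscle markers and the lowest sum of B and plasma cell markers of the 6. *Smad7* (ENSMUSG00000025880.5, chr18:75527183-75555589 in mm9, forward strand), the inhibitory Smad, had 1.94, 1.87 and 2.21 FPKM in the *Gdpd3*+/+ libraries. In the *Gdpd3*-/- libraries it had 2.97, 2.50 and 2.38 FPKM, above every *Gdpd3*+/+ library (exact permutation p = 0.1). The log2 fold change of *Smad7* was 0.36 (95% interval −0.18 to 0.91, limma adjusted p = 0.389), and it was 0.15 after TMM scaling and 0.05 after quantile normalization.

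The related corepressor genes *Ski* and *Skil* lay on opposite sides of the *Gdpd3*+/+ range. *Ski* (ENSMUSG00000029050.8, chr4:154528184-154596701 in mm9, reverse strand) had 5.64, 5.81 and 5.69 FPKM in the *Gdpd3*+/+ libraries and 9.10, 6.52 and 8.02 FPKM in the *Gdpd3*-/- libraries. All *Gdpd3*-/- values were higher (exact permutation p = 0.1), at a ratio of means of 1.38. Its limma log2 fold change was 0.44 (standard error 0.17, 95% interval 0.04 to 0.85, adjusted p = 0.193), and 0.23 after TMM scaling (adjusted p = 0.454), where the libraries overlapped. Quantile normalization gave 0.32 (limma adjusted p = 0.345), without overlap. *Skil* (ENSMUSG00000027660.9, chr3:30993980-31021499 in mm9, forward strand), which encodes SnoN, had 3.52, 2.99 and 3.33 FPKM in the *Gdpd3*+/+ libraries. In the *Gdpd3*-/- libraries the values of *Skil* were 2.46, 1.55 and 2.47 FPKM, all lower (exact permutation p = 0.1), at a ratio of means of 0.659. The limma log2 fold change was −0.61 (standard error 0.26, 95% interval −1.23 to 0.02, adjusted p = 0.235), and −0.82 after TMM scaling (adjusted p = 0.157). Leaving out 1 library at a time kept *Skil* between −0.71 and −0.40 (the latter without *Gdpd3*-/- replicate 6) and *Ski* between 0.33 and 0.57 on the log2 scale.

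Ratios of 2 genes within a library do not depend on how libraries are scaled against each other, and 5 such ratios were computed after the values above had been seen, so they are given without a test. *Ski* to *Skil* was 1.6, 1.94 and 1.71 in the *Gdpd3*+/+ libraries and 3.71, 4.20 and 3.24 in the *Gdpd3*-/- libraries, with means of 1.75 ± 0.174 and 3.71 ± 0.479 (SD, n = 3). With *Ski* higher and *Skil* lower in every *Gdpd3*-/- library, this ratio could not overlap between the genotypes. Its gap therefore follows from the values of the 2 genes given above. *Tgfbr3* to *Tgfbr2* was 1.19, 1.38 and 1.42 in *Gdpd3*+/+ and 0.958, 0.679 and 0.733 in *Gdpd3*-/- replicates, in the same order. Betaglycan transcripts were more abundant than those of the type II receptor in every *Gdpd3*+/+ library and less abundant in every *Gdpd3*-/- library. *Tgfbr3* to *Tgfbr1* was 1.64 to 2.09 in *Gdpd3*+/+ and 0.801 to 1.53 in *Gdpd3*-/- libraries, also without overlap. *Smad3* to *Smad2* was 0.263 to 0.385 in *Gdpd3*+/+ and 0.386 to 0.538 in *Gdpd3*-/- libraries, which lie side by side. *Smad7* to *Smad3* overlapped, at 0.252 to 0.309 and 0.224 to 0.353.

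**Figure D3:**
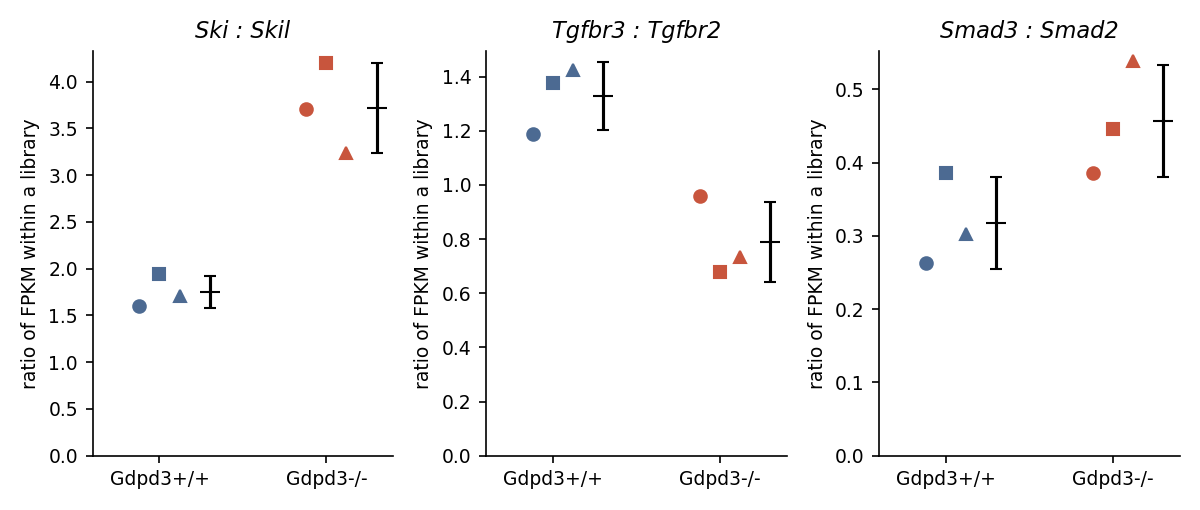
Ratio of FPKM between 2 genes within each library, with points per library (symbols as replicates 1 to 3 or 5 to 7 in order) and the mean ± SD of 3 libraries beside them. *Ski* to *Skil* is 1.6 to 1.94 in *Gdpd3*+/+ and 3.24 to 4.20 in *Gdpd3*-/- libraries, while *Tgfbr3* to *Tgfbr2* lies above 1 in the first and below 1 in the second.

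The spread among *Gdpd3*-/- libraries was wider than among *Gdpd3*+/+ libraries for 9 of the 10 genes on the log2 scale, *Smad2* being the other, beside 86.9% of the 15103 genes whose mean FPKM reached 1. The SD of log2 *Ski* was 0.022 in *Gdpd3*+/+ and 0.24 in *Gdpd3*-/- libraries, and that of *Tgfbr1* was 0.12 and 0.65.

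The regions upstream of *Ski* and *Smad3*, genes higher without overlap before TMM scaling, are shown for the short motifs that Smad proteins bind. RefSeq's promoter table (GRCm38.p6) had an entry for 5 of the 10 genes, and the 250 bases before the transcription start are printed 5′ to 3′ on the gene's strand, with capitals marking AGAC or GTCT and GGCGC or GCGCC, each motif with its reverse complement and overlapping matches counted separately. The *Ski* stretch is chr4:155222536-155222785 and the *Smad3* stretch is chr9:63757995-63758244, both on the reverse strand.
Ski: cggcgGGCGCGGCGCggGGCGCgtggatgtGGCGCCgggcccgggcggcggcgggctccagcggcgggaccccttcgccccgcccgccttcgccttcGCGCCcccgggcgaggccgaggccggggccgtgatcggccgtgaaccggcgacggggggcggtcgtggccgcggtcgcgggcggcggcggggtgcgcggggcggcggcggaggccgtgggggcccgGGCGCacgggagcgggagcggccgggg
Smad3: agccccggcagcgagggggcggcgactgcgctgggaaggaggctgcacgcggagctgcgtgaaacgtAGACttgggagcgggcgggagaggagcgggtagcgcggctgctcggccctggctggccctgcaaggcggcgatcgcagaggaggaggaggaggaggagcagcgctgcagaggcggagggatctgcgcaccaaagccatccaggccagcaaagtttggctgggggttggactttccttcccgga
*Ski* had 7 matches to GGCGC or GCGCC and 0 to AGAC or GTCT, with a G and C content of 87.6%. *Smad3* had 0 and 1, with 69.2%. Of 32851 promoters of this length in the table, 32.0% held GGCGC or GCGCC and 82.9% held AGAC or GTCT. Binding was not measured in these cells.

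The rest of the pathway was read through 62 genes in 6 lists, of which 58 were tested. Limma called 1 of the 58 higher and 0 lower, beside 1.09% and 0.616% of all genes tested. Its unadjusted p was under 0.05 for 17 of the 58, beside 22.2% of all genes. The same 22.2% is the background for the counts at an unadjusted p under 0.05 in each list below. Over the 58, the libraries were apart for 16 genes higher and 5 lower, beside 23.5% and 8.27% of all genes. The median log2 fold change of the 58 was 0.25, against 0.24 for all genes. The called gene was *Tgif1* (ENSMUSG00000047407.10, chr17:71193545-71202886 in mm9), which encodes a homeobox corepressor of Smad2 and Smad3. *Tgif1* had 11.9, 12.4 and 10.8 FPKM in the *Gdpd3*+/+ libraries and 22.0, 22.3 and 22.2 FPKM in the *Gdpd3*-/- libraries. It rose by 0.92 on the log2 scale (standard error 0.11, limma adjusted p = 0.0238), and by 0.70 after TMM scaling (adjusted p = 0.0389, beside 0.455% of all genes called higher). The call of *Tgif1* was lost with array weights and without an intensity trend (limma adjusted p of up to 0.0787), and when any 1 *Gdpd3*+/+ library was left out (adjusted p of up to 0.168), and was kept without any 1 *Gdpd3*-/- library. With 1 library left out, its log2 fold change stayed between 0.86 and 0.96.

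Among the 11 tested genes for ligands, latency and activation, 0 were called by limma (1 at an unadjusted p under 0.05) and the median log2 fold change was 0.15, or −0.05 after TMM scaling and −0.04 after quantile normalization. Without *Gdpd3*+/+ replicate 1 or *Gdpd3*-/- replicate 7 that median was 0.50 or 0.53. *Nrros*, which holds latent TGF-β1 on myeloid cells, was the most abundant, with means of 54.5 and 59.2 FPKM (limma adjusted p = 0.688). *Ltbp3*, a latent TGF-β binding protein, had 7.33 and 12.8 FPKM (adjusted p = 0.258), with *Gdpd3*-/- replicates spread from 7.33 to 18.4. *Itgav*, the integrin chain used to activate latent TGF-β, had 2.66 and 3.0 FPKM. *Tgfb2* had 0.0290 to 0.136 FPKM over the 6 libraries and *Tgfb3* 0.0406 to 2.47, highest in *Gdpd3*-/- replicate 5. Among the 10 tested activin and BMP receptors, 0 were called and 3 had an unadjusted p under 0.05, with a median of 0.60 as deposited, 0.41 after TMM scaling, 0.16 after quantile normalization and 0.33 with a pseudocount of 1. *Eng*, the endoglin co-receptor related to betaglycan, had 13.9, 13.8 and 14.8 FPKM in *Gdpd3*+/+ and 20.4, 21.3 and 19.9 FPKM in *Gdpd3*-/- libraries. All *Gdpd3*-/- values of *Eng* were higher, opposite to *Tgfbr3*, with a log2 fold change of 0.53 (limma adjusted p = 0.0585), and 0.31 after TMM scaling (adjusted p = 0.188). *Acvr2b*, an activin type II receptor, had 3.36 and 5.59 FPKM without overlap (limma adjusted p = 0.131), and *Bambi*, a decoy receptor, had 2.49 and 2.81.

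Of the Smads of the BMP branch and *Smad6*, 0 of 3 tested were called by limma and 0 had an unadjusted p under 0.05, with a median log2 fold change of 0.18, or −0.04 after TMM scaling. *Smad1* had means of 11.3 and 12.8 FPKM, *Smad5* 7.85 and 8.17, and the inhibitory *Smad6* 1.56 and 2.41, and *Smad9* was listed at 0 in every library. Of the 11 adaptors and cofactors, *Tgif1* was called and 5 had an unadjusted p under 0.05, with a median of 0.38, or 0.16 after TMM scaling and 0.17 after quantile normalization. *Fkbp1a*, whose product FKBP12 holds the type I receptor inactive, had 46.6 ± 0.673 and 62.6 ± 3.06 FPKM (SD, n = 3) without overlap (limma adjusted p = 0.0649, and 0.288 after TMM scaling). *Hgs*, an endosomal adaptor, had 15.2 and 19.8 FPKM (limma adjusted p = 0.203). The 9 ubiquitin ligases and deubiquitinases had 0 calls, 2 at an unadjusted p under 0.05 and a median of 0.02, which turned to −0.20 after TMM scaling and −0.12 after quantile normalization. It was 0.16 without *Gdpd3*-/- replicate 6. *Usp15* had 53.0 and 45.3 FPKM without overlap (limma adjusted p = 0.286), *Usp4* 42.9 and 43.6, and *Usp11* 18.5 and 22.1.

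Of the 14 target genes of TGF-β and BMP signalling, 0 were called by limma, and of 6 with an unadjusted p under 0.05, 4 were higher and 2 lower. Of the 14, the libraries were apart for 5 genes higher and 2 lower, beside 23.5% and 8.27% of all genes tested. The median log2 fold change of the 14 was 0.21. It was 0.02 after TMM scaling, −0.13 after quantile normalization and −0.07 without *Gdpd3*-/- replicate 7. *Junb*, an AP-1 subunit, had the highest level, with means of 140 and 264 FPKM without overlap (limma adjusted p = 0.10). *Myc* had 75.7 and 90.8 FPKM, and *Id2* 46.2 and 36.6, both with overlap. The following 5 genes were named after their values were seen. *Gadd45b* had 14.3, 15.3 and 14.6 FPKM in *Gdpd3*+/+ and 9.66, 9.98 and 9.05 FPKM in *Gdpd3*-/- libraries, all lower. Its log2 fold change was −0.62 (limma adjusted p = 0.0560). After TMM scaling it was −0.84 (adjusted p = 0.0326), beside 1.03% of all genes called lower. *Id1* and *Id3*, related inhibitors of basic helix-loop-helix factors, had values on opposite sides: *Id1* had 6.04 to 7.47 FPKM in *Gdpd3*+/+ and 2.94 to 4.94 in *Gdpd3*-/-, while *Id3* had 0.584 to 0.811 and 1.80 to 2.77. Their limma adjusted p was 0.118 and 0.0662, and 0.0936 and 0.0957 after TMM scaling. *Cdkn1a*, the cell cycle inhibitor p21, had means of 6.24 and 11.3 FPKM (limma adjusted p = 0.108), and *Tsc22d1* 28.2 and 50.9 (limma adjusted p = 0.0696), both without overlap. After TMM scaling their limma adjusted p was 0.200 and 0.123.

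**Figure D4:**
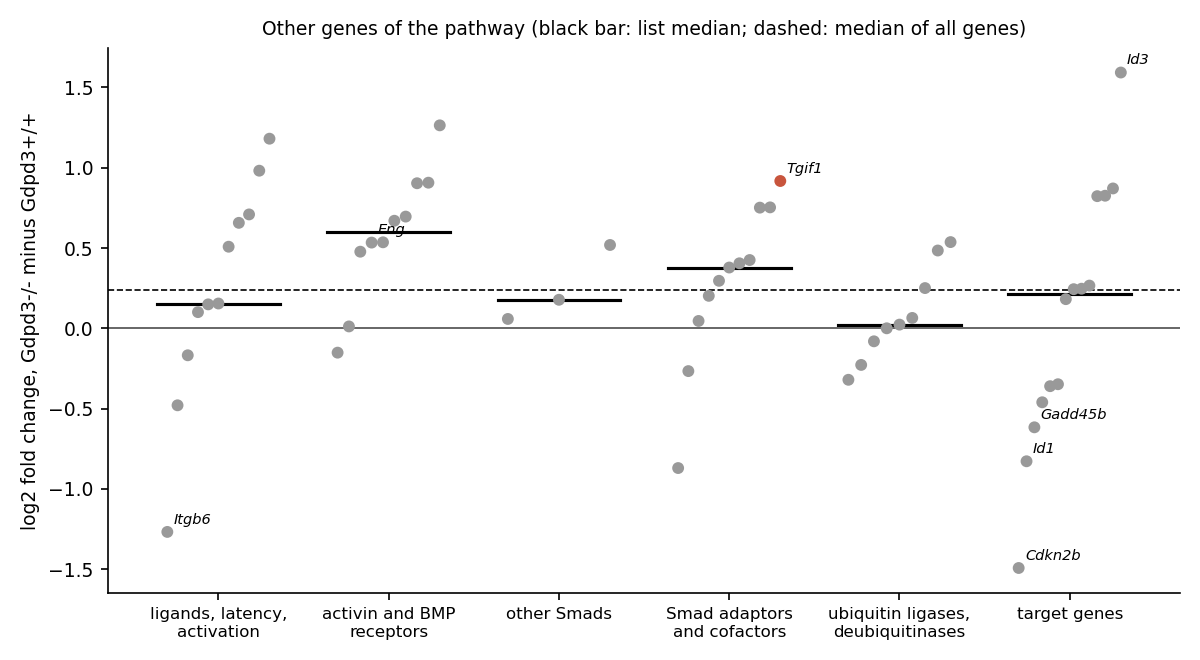
Log2 fold change (*Gdpd3*-/- minus *Gdpd3*+/+, limma on log2(FPKM + 0.1)) of each tested gene in the 6 lists of other pathway genes, with a bar at each list's median and a dashed line at the median of all genes (0.24). *Tgif1*, in red, is the called gene, and the target genes lie on both sides of 0, from *Cdkn2b* and *Id1* below to *Id3* above. *Cdkn2b* had low and overlapping levels, at 0.105 to 0.620 FPKM in *Gdpd3*+/+ and 0 to 0.171 in *Gdpd3*-/- libraries.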

How the data were processed

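LT-CML stem cells were sorted into Isogene, and libraries were made with SMART-Seq v4 and Nextera XT and sequenced as paired-end reads of 150 bases. Per the study's methods and the submitters' processing notes, filtered reads were mapped with STAR 2.6.1a, and the notes also name Trimmomatic, Trim Galore, cutadapt 1.16, featureCounts 1.6.1 and the build mm9. The authors deposited FPKM for 36976 genes, with one column per library. A deposited DESeq2 table gave the base mean signal, which the authors made as a mean of normalised counts over the libraries (404 to 4174 for the 10 genes). Its fold changes, standard errors, statistics and p-values were not used.

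Reads could not be counted back from FPKM, which precluded a count model. Every value under 1000 covered bases came out whole within 0.01 of a base at the inferred depth. Since amplified reads are not independent molecules, read equivalents describe coverage only. Genes whose mean FPKM reached 0.05 entered limma 3.58.1 (R 4.3.3) as log2(FPKM + 0.1), with an intensity trend, genotype as the sole term and Benjamini-Hochberg adjustment over all 24689. Fold changes on this scale understate those of low genes. An exact permutation test of the difference in mean FPKM, two-sided, was run for single genes (SciPy 1.17.1). The study calls the libraries biologically independent, and p-values measure the spread between them. The functions were tested on simulated data.

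The genes and lists were chosen with earlier results of these data known. Named genes are the 10 genes, *Gdpd3*, and of each pathway list the called genes and the 3 of highest mean FPKM, and the 5 genes nearest in profile to the gene with the lowest p. Of each marker list, the rule names the gene of highest mean FPKM, *Acta1* with 232 to 4536 FPKM over the 6 libraries, *Igkc* with 30660 to 96105 and *Pf4* with 121 to 310, and markers at 0 throughout. Marker genes other than these, *Tgfb2*, *Tgfb3*, *Cdkn2b* and the 5 target genes marked as such were named outside the rule. List genes were matched by gene identifier (87.5% of identifiers had a current symbol), and the positions in mm9 are those of the deposited table. No exon base of the 10 genes is shared with another gene listed. The fit was repeated with other pseudocounts (0.01, 1), without the filter, with a minimum mean FPKM of 1, after TMM scaling (trimming 30% of M and 5% of A values), after quantile normalization, with array weights, without the trend, and without each library in turn.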

Additional observations from a re-analysis of the deposited data

How the results depend on the processing

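No paired analysis was possible because replicate numbers are not shared between the genotypes. Across 14 alternatives for each of the 10 genes, 130 of 140 fits kept the direction and the side of the threshold, 1 passed it (*Tgfbr3* without *Gdpd3*-/- replicate 7) and 9 turned the sign of a small difference. These 9 were *Tgfbr1* with array weights (0.0151), *Tgfbr2* with TMM scaling (−0.18) and quantile normalization (−0.0588), *Smad4* with array weights (0.0661), and fits with 1 library left out, over which the log2 fold change ran from −0.33 to 0.30 for *Tgfbr1*, from −0.15 to 0.17 for *Tgfbr2* and from −0.23 to 0.26 for *Smad4*. The number of the 10 genes called ran from 0 to 1 with 1 library left out.

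The number of the 10 genes without overlap, 5, became 3 after TMM scaling, beside 29.9% of all genes. After quantile normalization it was 4, beside 29.1%. With 1 library left out, where 1 group has fewer libraries, it ran from 5 to 7, beside 35.5% to 47.4% of all genes. It is 7, with *Tgfbr1* and *Smad4* added above, without *Gdpd3*-/- replicate 6, where 45.2% of all genes tested had no overlap. These counts were chosen after seeing the data.

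Of the other pathway genes, 4 were called with no filter or a mean FPKM of at least 1 (*Eng*, *Fkbp1a*, *Gadd45b* and *Tgif1*). Over all genes, 181 were then called higher and 102 lower of 36976, or 471 and 202 of 15103. After TMM scaling 2 pathway genes were called, beside 1.49% of all genes. With no intensity trend 0 were called. Array weights gave 1 (*Tsc22d1*, with *Tgif1* not called), beside 124 higher and 116 lower of all 24689 genes. With 1 library left out, 0 to 7 pathway genes were called. The 7 were without *Gdpd3*-/- replicate 7, where 14.2% of all genes were called. The 270 genes higher over all became 124 with a pseudocount of 1, 471 with a mean FPKM of at least 1, 112 after TMM scaling, 119 after quantile normalization, 79 with no intensity trend, 124 with array weights, and 0 to 2364 with 1 library left out. The 152 lower genes became 101 with a pseudocount of 1, 254 after TMM scaling, 74 with no intensity trend, and 0 to 1049 with 1 library left out (0 without *Gdpd3*+/+ replicate 1, 1049 without *Gdpd3*-/- replicate 7). The cause was not tested, apart from fewer genes or libraries where these were left out.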

Other observations

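The genes whose profile over the 6 libraries lay nearest to that of *Tgfbr3* were found by the Euclidean distance of log2(FPKM + 0.1), centred on each gene's mean, among 15102 genes whose mean FPKM reached 1. The nearest 5 were *Gm3906* (distance 0.099), *Mybl2* (0.103), *Nomo1* (0.115), *Fgl2* (0.124) and *Gm17504* (0.177). *Mybl2*, a Myb family transcription factor, had 12.3, 14.8 and 12.8 FPKM in *Gdpd3*+/+ and 7.91, 6.42 and 9.93 FPKM in *Gdpd3*-/- libraries. It shared with *Tgfbr3* the highest level in *Gdpd3*+/+ replicate 2 and the lowest in *Gdpd3*-/- replicate 6. Of the other 9 genes described above, *Skil* was the nearest, at rank 177 (distance 0.413), and *Smad2* followed at rank 2535. *Ski* was the farthest, at rank 8497 (distance 1.46). All genes share these libraries and their depth, so the distances are a description without a test.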
